A study of Mus musculus with 4 samples.

Results

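The gaps described here are stretches of chromatin that lay inside a lamina-associated domain (LAD) of WT hepatocytes and outside every LAD of *Tm7sf2*-KO hepatocytes, with KO LAD on both sides. They were selected on the deposited LAD calls themselves: each is an interval of the WT-only list of differential regions (DRs, parts of a LAD in 1 genotype that no LAD of the other covers) that shares neither its start nor its end with the WT LAD around it, on chromosomes 1 to 18. This rule returned 4385 gaps, which hold 82.2 Mb. They are 65.0% (Wilson 95% interval 63.9% to 66.2%) of the 6742 WT-only DRs on these chromosomes, and the series lists 7787 WT-only DRs in all. Their number, length and LAD state follow from the rule and are a description. What the rule did not use is their genes, base composition and place within the host LAD.

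The study asked how loss of *Tm7sf2*, which encodes the nuclear envelope protein NET47, changes chromatin at the nuclear periphery of the liver. Primary hepatocytes came from C57BL/6 WT mice and *Tm7sf2*-/- mice of the same background at 12 to 16 weeks of age. They were transduced for 24 h with lentivirus that encodes either Dam fused to LaminB1 or Dam alone and were harvested 60 h after transduction. The 4 libraries (WT Dam-LaminB1, WT Dam only, KO Dam-LaminB1 and KO Dam only) each hold the pooled DNA of 4 mice. A genotype is therefore 1 pooled sample, no test between genotypes is possible, and no p-value is given. Intervals on shares cover counting error only. The study reports fewer usable reads for KO than for WT. It also reports more and shorter LADs in KO at about the same genome coverage. The part of these differences in the gaps was not tested. The interval lists hold no signal and no expression, so neither the hepatocyte identity of the cells nor the loss of *Tm7sf2* could be checked in them.

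LADs are long, gene-poor stretches of chromatin that touch the lamina, the protein mesh under the inner nuclear membrane, and most of their genes are silent. In DamID, the bacterial methylase Dam marks the adenine of GATC near the lamina when it is fused to a lamin, and *DpnI* cuts only at marked GATC sites. The GATC site is thus the unit of resolution of the method, and a region can be read only where such sites lie. The genes that LADs do hold are often those of tissue-specific families, such as odorant receptors and synaptic adhesion proteins.

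The borders of the gaps carry the mark of the method, and the 60 bases around each border of the 3 longest gaps are shown for this reason. All 8770 borders of the 4385 gaps fell within a GATC site, between its T and its C. GATC is in capitals in these 6 stretches, which are on the forward strand of mm9 and centred on the middle of the border's GATC site. They are chr11:111886005-111886064 and chr11:112021983-112022042 for the 136.0 kb gap, chr15:98174159-98174218 and chr15:98290112-98290171 for the 116.0 kb gap, and chr8:92515588-92515647 and chr8:92631168-92631227 for the 115.6 kb gap.
136.0 kb gap, left border: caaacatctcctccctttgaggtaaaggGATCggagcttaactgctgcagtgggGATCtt
136.0 kb gap, right border: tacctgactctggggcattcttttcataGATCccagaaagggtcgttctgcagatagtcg
116.0 kb gap, left border: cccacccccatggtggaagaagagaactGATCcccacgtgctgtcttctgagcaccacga
116.0 kb gap, right border: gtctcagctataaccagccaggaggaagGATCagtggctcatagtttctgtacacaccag
115.6 kb gap, left border: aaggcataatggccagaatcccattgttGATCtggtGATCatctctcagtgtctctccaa
115.6 kb gap, right border: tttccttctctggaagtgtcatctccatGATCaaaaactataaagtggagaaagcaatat
The left borders of the 136.0 kb and the 115.6 kb gaps have another GATC close by, whereas the other borders shown have only the site at the border itself within 30 bases.

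Most gaps were short. The median length was 14.6 kb, the quartiles were 11.6 and 21.7 kb, and lengths ran from 10.001 kb to 136.0 kb. Gaps of 10 to 20 kb made up 71.2% of the number and 50.5% of the bases. A further 1150 gaps (26.2%) measured 20 to 50 kb, 115 (2.62%) measured at least 50 kb, and 3 measured at least 100 kb. The lower end is set by the 10 kb minimum of the deposited list: the 3 shortest gaps measured 10001, 10001 and 10003 bp, and the 3 longest interior stretches left out measured 9996, 9998 and 9999 bp. Without the 10 kb minimum, removing KO LAD from WT LAD gave 6253 interior stretches. Of these, 1868 were under 10 kb and none was under 8 kb, the shortest being 8001 bp. Their number fell with each kb of length, from 1014 at 8 to 9 kb and 854 at 9 to 10 kb to 761 at 10 to 11 kb and 532 at 11 to 12 kb. The gaps therefore start partway down a distribution that has no break at the minimum, as the plot of lengths shows.

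**Figure D1:**
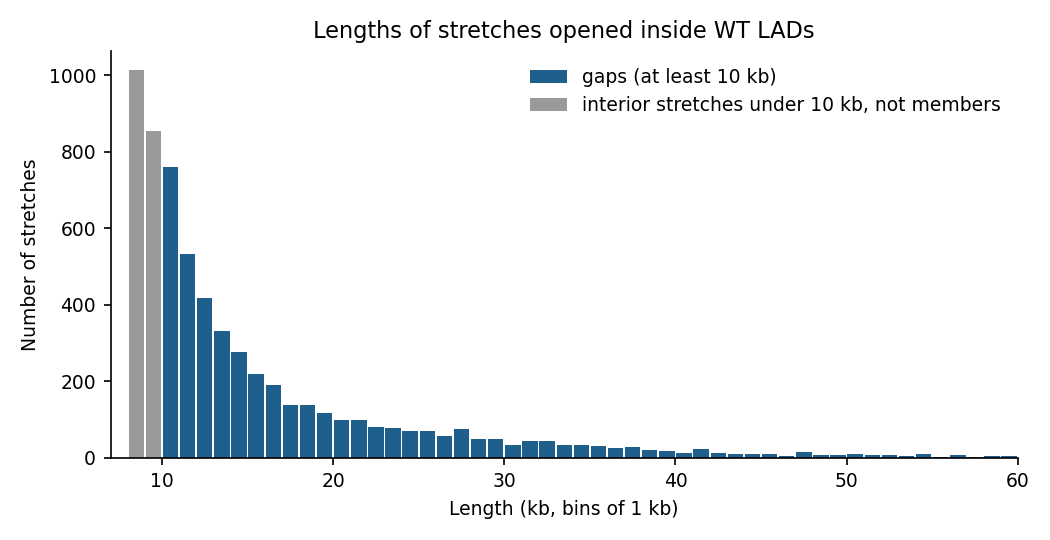
Number of stretches opened inside WT LADs (vertical axis) by length in kb (horizontal axis, bins of 1 kb, shown up to 60 kb). Blue bars are the gaps and grey bars the interior stretches under 10 kb, which are no members; the counts fall from 1014 at 8 to 9 kb to 532 at 11 to 12 kb with no step at 10 kb.

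The KO chromatin on either side of a gap was usually longer than the gap. The flanking KO LADs had a median length of 72.7 kb (quartiles 31.6 and 170 kb), and 3471 gaps (79.2%) were shorter than both of their flanking KO LADs. In 186 cases the gap was longer than both. A gap held a median of 33 GATC sites, with 19 at the 5th and 98 at the 95th percentile, and the lowest was 9. Unknown bases (N) touched 5 gaps and made up over 10% of 0 gaps.

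Gaps lay in 1825 of the 7132 WT LADs on these chromosomes (25.6%), but these hosts held 1017.82 Mb, which is 76.8% of all WT LAD bases. Host LADs had a median length of 247.6 kb, against 26.4 kb for WT LADs without a gap. Gaps opened 8.07% of the host bases and 6.20% of all WT LAD bases. Among WT LADs under 100 kb, which have little room for an interior gap, 8.30% were hosts. The share rose with length to 53.1% at 100 to 250 kb, 70.5% at 250 to 500 kb, 84.1% at 500 to 1000 kb, 95.9% at 1000 to 2000 kb and 99.1% (106 of 107) at 2000 kb or more. Relative to length the order differed: gaps numbered 2.56 per Mb under 100 kb and 4.74 per Mb at 100 to 250 kb. The longer classes held 4.03 and 3.29 per Mb, and the 2 longest 2.84 and 3.09. The share of bases opened had the same shape, with 4.63% under 100 kb, 9.97% at 100 to 250 kb and 5.02% at 1000 to 2000 kb. Nearly every long LAD thus held gaps, while the gaps took a smaller part of it than of a mid-sized LAD.

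More than 1 gap per host was common. Of the hosts, 985 (54.0%) held 1 gap, 365 held 2, and 51 held at least 10. The 216 hosts with at least 5 gaps held 41.0% of all gaps. The share of a host that opened had a median of 11.8% and ranged from 0.528% to 94.5%, and 76 hosts opened over more than 50% of their length. Neighbouring gaps in 1 host (2560 pairs) were a median of 98.0 kb apart; 826 pairs (32.3%) were within 50 kb and 219 were over 500 kb apart. By position, the 5 equal parts of a host, from its left to its right border, held 17.8%, 20.5%, 22.7%, 21.4% and 17.7% of the gap midpoints. A gap that touches a border is not a member, which keeps midpoints out of the ends of short hosts. In hosts of at least 1000 kb, where this matters little, the 5 parts held 21.2%, 18.2%, 20.0%, 19.8% and 20.8% of 1781 gaps. Gaps were therefore spread over the length of the long LADs and did not gather at their ends or centres. The median distance from a gap to the nearest host border was 117.5 kb, and 334 gaps came within 10 kb of one.

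The host with the most gaps spanned chr6:73322935-81696532 (8373.6 kb). Its 40 gaps held 807.9 kb, or 9.65% of it, and measured 10.1 to 60.05 kb with a median of 15.4 kb. They reached from 265.9 to 8341.7 kb of the host but were spread unevenly. For example, no gap lay from 293.6 to 1165.9 kb or from 5303.0 to 6204.5 kb. Of the 40, 20 fell in 2 long genes. *Lrrtm4*, which encodes a postsynaptic adhesion protein, was cut by 11 gaps over 21.3% of its span, and *Ctnna2*, which encodes the neuronal alpha-catenin that links cadherins to actin, by 9 gaps over 17.8%. The next host, chr8:98448240-105300946, held 31 gaps over 7.97% of its length. Of its genes, the cadherin genes *Cdh8* and *Cdh11* were cut by 1 gap each, over 2.73% and 6.65% of their spans. The third, chr14:106304721-112070957, held 23 gaps over 6.70%, and 1 of them covered 79.9% of *Slitrk6*, a gene for a neuronal transmembrane protein. The map of the chr6 host shows KO LADs that persist between the gaps.

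**Figure D2:**
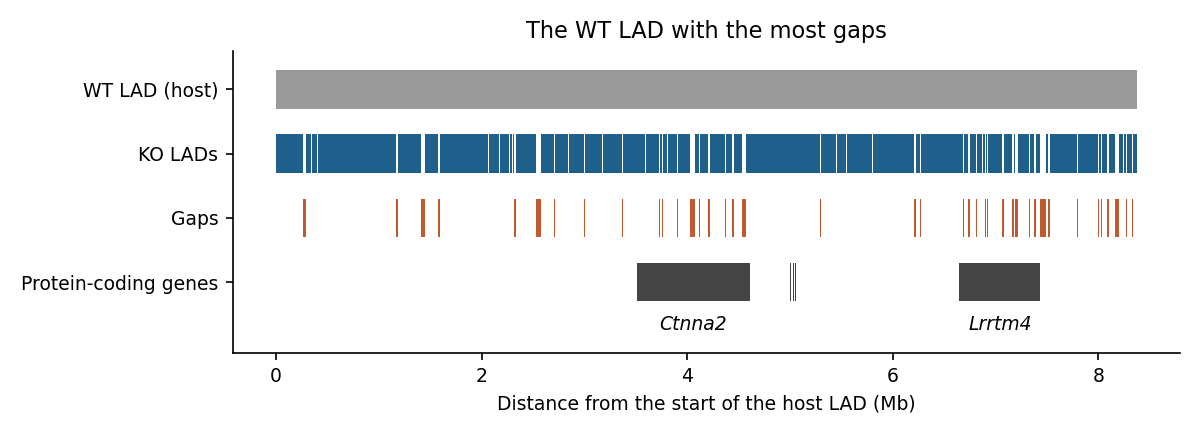
The WT LAD with the most gaps, with distance from its start in Mb on the horizontal axis; rows show the WT LAD (grey), the KO LADs (blue), the gaps (orange) and protein-coding genes (dark). The 40 gaps lie unevenly along the LAD, with 9 in *Ctnna2* and 11 in *Lrrtm4*. White breaks in the KO row with no gap below them are under 10 kb.

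Of the 5 longest gaps, 4 held no protein-coding gene, whereas among the 115 gaps of at least 50 kb 48 (41.7%) overlapped one, against 33.7% of all gaps. The 136.0 kb gap (chr11:111886036-112022013) held no protein-coding gene, and the nearest ones were *Gm11678* at 270 kb and *Sox9*, a transcription factor gene of cartilage and bile duct cells, at 622 kb. The 99.4 kb gap at chr11:112180661-112280108 lay in the same host LAD and held no gene either. The 115.6 kb gap (chr8:92515619-92631198) was 140 kb from *Tox3*, which encodes an HMG-box nuclear protein, and the 95.7 kb gap (chr15:6047936-6143638) was 106 kb from *Dab2*, an endocytic adaptor gene. The 116.0 kb gap at chr15:98174190-98290142 held the starts of the odorant receptor genes *Olfr283*, *Olfr282* and *Olfr281*.

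Gaps held few genes, as LADs do. Protein-coding transcription starts numbered 211 in the gaps, or 2.57 per Mb. They numbered 3.15 per Mb in the parts of the same host LADs that stayed LAD in KO (the kept LAD). The flanking windows, 1 of the gap's own length on either side, clipped to kept LAD and merged where they met, held 2.67 per Mb. Outside the LADs of both genotypes there were 15.1 per Mb. A start lay in 187 gaps (4.26%, 3.71% to 4.90%) and in 4.001% (3.599% to 4.446%) of the flanking windows. These intervals overlap, so this count did not set gaps apart from their immediate surroundings. It does not show them to be equal either, since the windows were shorter, with a median of 13.7 kb against 14.6 kb. Starts were denser in gaps than in kept LAD on 4 of 18 chromosomes and sparser on 14, and the ratio was 0.816 overall. That ratio turned to 1.44 for the 115 gaps of at least 50 kb against the kept part of their own hosts. Yet these long gaps held 17 starts, or 2.32 per Mb, fewer per Mb than all gaps did. The kept part of their hosts was thus poorer in starts than kept LAD as a whole. Of the 17 starts, 3 gaps with odorant receptor genes held 4, 3 and 3. Gene ends numbered 3.32 per Mb in gaps and 3.35 per Mb in kept LAD, a ratio of 0.9902. In the other regions lost in KO, starts numbered 3.87 per Mb in the 1500 edges of WT LADs lost in KO and 3.40 per Mb in the 857 WT LADs lost whole. The opposite class stood far from all of these. The 1545 breaks between WT LADs that a KO LAD bridged, which lay outside WT LADs by definition, held 19.6 starts per Mb, and 32.7% (30.4% to 35.1%) of them held a start.

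By content, 2908 gaps (66.3%) overlapped no protein-coding gene, 680 (15.5%) lay only over introns, 610 (13.9%) held exon without a start, and 187 held a start. A gene enclosed the whole gap in 1156 cases (26.4%). From a gap's midpoint to the nearest protein-coding start the median distance was 173 kb, with quartiles of 65.1 and 394 kb. Gene spans covered 29.5% of gap bases, 28.8% of the flanking windows, 23.5% of kept LAD and 53.6% outside LADs, and exons covered 0.942%, 0.917%, 0.817% and 5.63%. At least 2 starts lay in 18 gaps. The 5 gaps with 3 or more were the chr15 gap above, a 51.4 kb gap on chr11 with 4 (*Olfr325*, *Olfr324*, *2210407C18Rik* and *Olfr323*), a 53.7 kb gap on chr11 with *4930504O13Rik*, *Olfr30* and *Olfr332*, and 2 gaps on chr11 of 13.9 and 14.5 kb with 3 predicted genes each (*Gm14189*, *Gm14187* and *Gm14177*, and *Gm14178*, *Gm14181* and *Gm14194*), all chosen for their number of starts.

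In base composition gaps differed from kept LAD by a slightly higher GC content and a lower density of GATC. Gaps had 40.01% GC, against 39.1% in kept LAD, 39.8% in the flanking windows and 45.2% outside LADs. GC was higher in gaps than in kept LAD on 18 of 18 chromosomes, by 0.909 percentage points overall. Next to their own flanks the difference was small: 2172 gaps (49.5%) had the higher GC, and the median difference was -0.020 percentage points. CpG dinucleotides occurred at 0.157 of the number that base content gives in gaps, 0.158 in kept LAD, 0.159 in flanks and 0.223 outside LADs. GATC sites numbered 2.27 per kb in gaps, 2.59 in kept LAD, 2.56 in flanks, 2.38 outside LADs and 2.50 over all of chromosomes 1 to 18. This density was lower in gaps than in kept LAD on 18 of 18 chromosomes, with a ratio of 0.877. Against their own flanks, 3162 gaps (72.1%, 70.8% to 73.4%) had fewer GATC sites per kb and 1161 had more, with a median difference of -0.33 per kb. Gap densities were 2.18, 2.21, 2.33 and 2.42 per kb at lengths of 10 to 12, 12 to 20, 20 to 50 and at least 50 kb, and the share of gaps poorer in GATC than their flanks was 73.5%, 71.8%, 70.5% and 77.4% in these classes. The WT breaks bridged in KO were GATC-poor as well, at 2.19 per kb, whereas edges lost and whole WT LADs lost held 2.48 and 2.64 per kb. GATC density is a property of the sequence through which the assay reads contact with the lamina, and its part in where gaps were called was not tested.

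**Figure D3:**
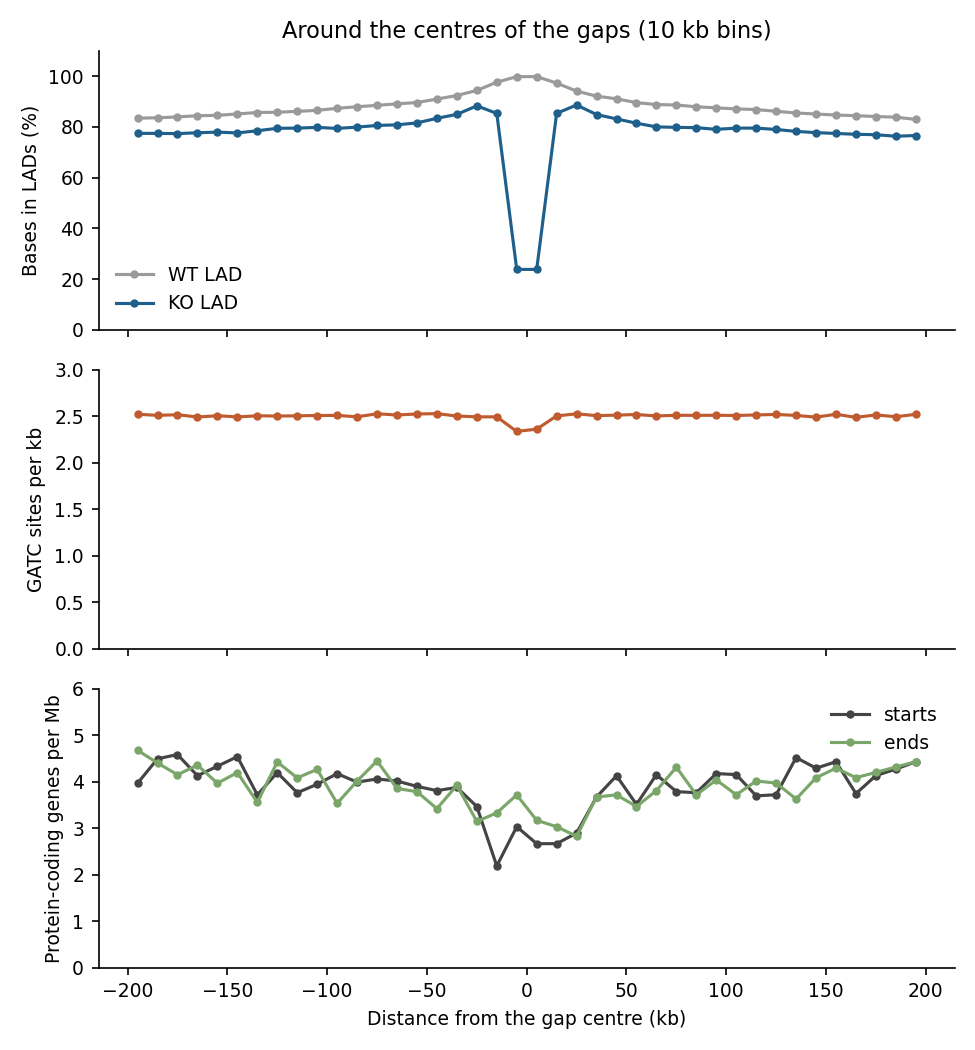
Share of bases in WT and KO LADs (top, %), GATC sites per kb (middle) and protein-coding gene starts and ends per Mb (bottom) against distance from the gap centre in kb, summed over the 4385 gaps in bins of 10 kb; each point is 1 bin. GATC density drops to 2.34 and 2.36 per kb in the 2 central bins, and the KO LAD share drops there by construction.

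Around the gap centres the fall in GATC density was narrow. The 2 bins of 10 kb at the centre held 2.34 and 2.36 sites per kb, and the 38 other bins within 200 kb held 2.49 to 2.53. Starts behaved otherwise: they were sparse over a wider stretch, at 2.19 to 3.47 per Mb in the 6 bins within 30 kb of the centre and at 3.51 to 4.58 per Mb in the 34 bins farther out, where part of the sequence is outside the LAD. WT LAD covered 83.4% of bases in the bin 195 kb to the left and 99.8% in the central bins.

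**Figure D4:**
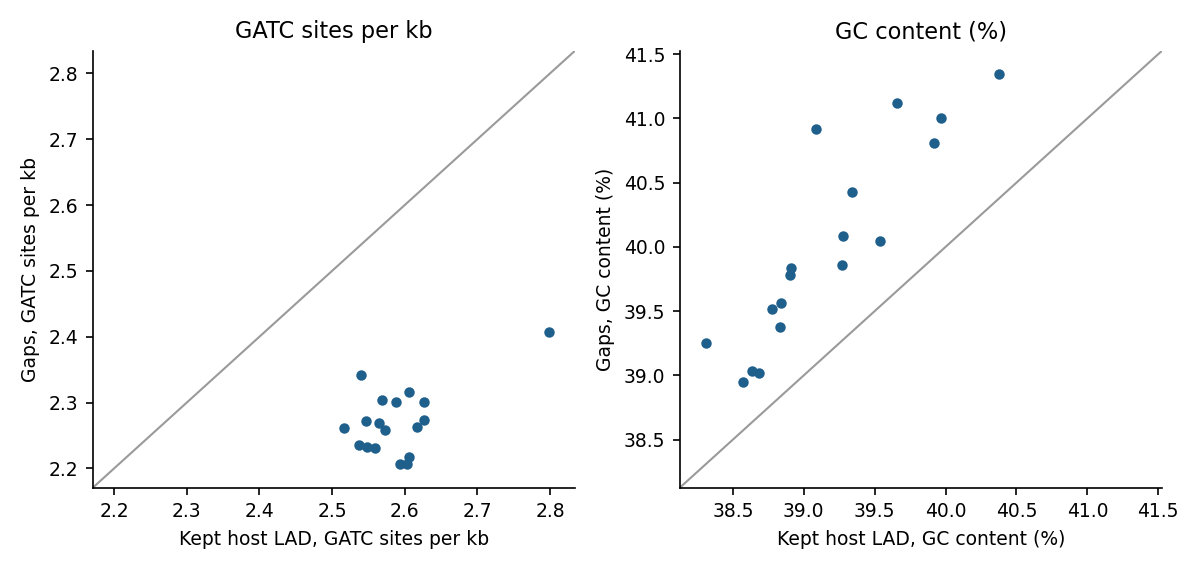
GATC sites per kb (left) and GC content in % (right) in the gaps (vertical axis) against the kept part of their host LADs (horizontal axis), 1 point for each of chromosomes 1 to 18; the grey line marks equal values. All 18 points lie below the line for GATC and above it for GC.

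Gaps occurred on every chromosome studied. They numbered from 2.44 per Mb of WT LAD on chromosome 3 to 5.04 on chromosome 11, with a median of 3.45, and chromosomes 16 (4.62), 15 (4.37) and 5 (4.03) followed chromosome 11. The share of WT LAD bases in gaps ran from 4.06% on chromosome 10 to 10.8% on chromosome 11. Their length varied little: the median gap measured 13.5 kb on chromosome 6 and 15.9 kb on chromosome 16. On 18 of 18 chromosomes gaps outnumbered the WT breaks bridged in KO. Over the 18 chromosomes, which share the same libraries, gap density and the percent of the chromosome in WT LAD had a Spearman rho of -0.35. The density of starts in gaps ranged from 0.222 per Mb on chromosome 12 to 5.99 per Mb on chromosome 7, which also had the highest density in kept LAD (9.42 per Mb).

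Of 20694 protein-coding genes on chromosomes 1 to 18, 942 overlapped a gap by at least 1 base (4.55%), and these were 15.4% of the 6128 genes with any base in a WT LAD. The start lay in a gap for 211 (1.02%). Gaps took a median of 13.6% of the span of the genes they overlapped. An exon lay in a gap for 705 genes and intron alone for 237. All of the span lay in gaps for 112 genes, 260 genes were cut by at least 2 gaps and 42 by at least 5. KO LAD remained over some part of 830 of the 942. Since other parts of a gene could gain KO LAD, 121 genes (12.8%) had more of their span in LAD in KO than in WT despite the gap, and 821 had less, with a median change of -13.7 percentage points.

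Overlap followed gene length. Overlapped genes had a median span of 148.8 kb, and genes in WT LADs without a gap had one of 8.60 kb. By span, 4.90% of WT LAD genes under 10 kb overlapped a gap, then 10.7% at 10 to 50 kb, 21.4% at 50 to 200 kb, 50.6% at 200 to 500 kb and 83.2% at 500 kb or more. The share with the start in a gap went the other way, from 4.20% to 4.05%, 2.35%, 1.20% and 0%. These shares are of genes with any base in a WT LAD, and a start outside WT LAD cannot lie in a gap. How many starts lay outside WT LAD in each class was not counted. Counted in bases, the difference between classes was far smaller: gaps took 4.83%, 5.60%, 5.75%, 6.96% and 7.97% of the WT LAD bases of these genes. Along the 344 genes of at least 100 kb with 99% or more of their span in WT LAD, gaps took a mean of 4.59% of the most 5' of 5 equal parts, then 5.54%, 7.13% and 6.39%, and 6.20% of the most 3' part.

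The 10 genes cut by the most gaps were long genes of differing roles. *Ptprd*, a receptor tyrosine phosphatase gene of synapses, was cut by 12 gaps over 10.2% of its 2270.72 kb. *Macrod2*, which encodes an ADP-ribosyl hydrolase, was cut by 11 gaps over 9.15%, and *Nrxn3*, a presynaptic neurexin gene, by 11 over 9.47%. *Auts2*, a neurodevelopmental regulator gene, had 10 gaps over 24.4% of its span, and *Astn2*, an astrotactin gene of neuronal migration, had 10 over 16.9%. Protocadherin gene *Pcdh9* (20.7%), the fragile-site hydrolase gene *Fhit* (9.92%) and the RNA-binding protein gene *Rbms3* (14.5%) had 8 each. In each of these genes, and in *Lrrtm4* and *Ctnna2*, the start lay outside the gaps and KO LAD kept at least 65.5% of the span. Exons were touched unevenly: 10 of 23 in *Astn2* and 11 of 56 in *Ptprd*, but 0 of 14 in *Fhit*.

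As a list, 64 of the 79 synaptic and neuronal adhesion genes with WT LAD overlapped a gap (81.0%), against 15.4% of all WT LAD genes, and 1 had its start in one. Their median span was 635.8 kb, and 83.2% of all WT LAD genes of at least 500 kb overlapped a gap. In bases, gaps took 8.38% of the list's WT LAD and 6.88% of that of all genes. The splicing factor gene *Rbfox1* had 5 gaps over 32.5% of its span, and *Flrt2*, an adhesion receptor gene, 1 gap over 43.7%. Of the cadherin genes 10 of 13 were overlapped (76.9%, 49.7% to 91.8%), with 7.15% of bases. Their median span was 195.3 kb. Of all WT LAD genes, 21.4% at 50 to 200 kb and 50.6% at 200 to 500 kb overlapped a gap. *Cdh10* had 3 gaps over 23.6%, which included its start, *Cdh13* 5 over 8.76%, and *Cdh12* 3 over 8.57%, also with its start. Of the ion channel and neurotransmitter receptor genes 48 of 106 were overlapped (45.3%, 36.1% to 54.8%), with 7.48% of bases. Their median span was 145.3 kb. No list was matched to other genes by span, so the part of length in these shares was not tested. The inward rectifier gene *Kcnj2* lay whole in a gap, as did 98.3% of *Gabra6*, a GABA receptor subunit gene, and 82.8% of *Chrna6*, a nicotinic receptor subunit gene.

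Clustered gene families gave smaller shares than the 15.4% of all WT LAD genes, though some intervals hold that value. Not all were short: zinc finger and lectin-like receptor genes had median spans of 17.9 and 14.1 kb. All WT LAD genes had a median of 13.9 kb. Of the 980 odorant receptor genes with WT LAD, 49 overlapped a gap (5.0%, 3.803% to 6.549%), 47 had their start in it, and 44 lay in gaps over the whole span, among them *Olfr869*, *Olfr536* and *Olfr1331*. All WT LAD genes under 10 kb gave 4.90%. Of the vomeronasal and taste receptor genes 28 of 342 were overlapped (8.19%, 5.72% to 11.6%), and *Vmn2r8*, *Vmn1r172* and *Vmn1r185* lay whole in gaps. Zinc finger genes gave 13 of 97, with *Zfp493* and *Zfp551* whole and *Zfp932* over 90.5%. Of the lectin-like immune receptor genes 4 of 42 were overlapped (9.52%, 3.77% to 22.1%, an interval that holds the 15.4%). They were led by *Clec2i* (32.9% of its span), *Clec12a* (24.95%) and *Clec9a* (22.9%). Gaps overlapped 1 of 45 keratin and keratin-associated genes (2.22%, 0.393% to 11.6%), the hair protein gene *Krtap26-1*. They overlapped 0 of 37 defensin genes (0% to 9.41%). Both intervals hold the 4.90% of WT LAD genes under 10 kb.

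**Figure D5:**
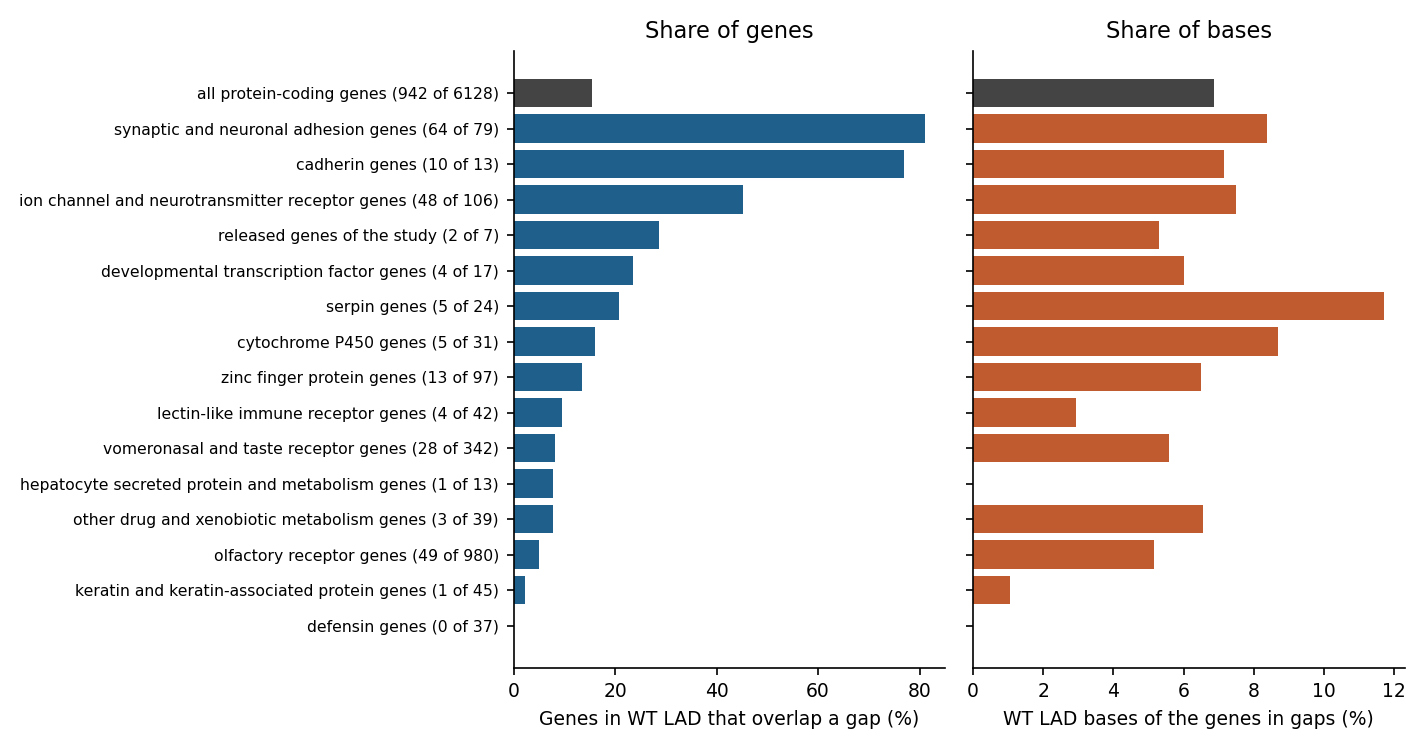
Left, percent of the WT LAD genes of each list that overlap a gap; right, percent of the WT LAD bases of those genes that lie in gaps; the dark bar on top of each panel is all protein-coding genes, and labels give overlapped genes of WT LAD genes for lists with at least 7 in WT LAD. Shares of genes run from 0% to 81.0%, while 10 of the 15 lists have 5% to 9% of their bases in gaps.

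Of 94 listed genes for hepatocyte secreted proteins and metabolism, 13 had WT LAD and 1 overlapped a gap, the complement gene *C6*, by 9 bases. The list does not hold every such gene. Outside it, and named after their values were seen, the complement gene *C7* had 19.5% of its span in a gap, and of the major urinary protein genes, which encode pheromone carriers secreted by the liver, *Mup9* lay whole in a gap and *Mup11*, *Mup6* and *Mup2* had 48.2%, 47.8% and 17.1% of their spans in one. The *Mup* genes are close copies of one another, so read placement among them is uncertain. Of 80 cytochrome P450 genes, which encode oxidases of drugs, steroids and fatty acids, 31 had WT LAD, and 5 of these (16.1%, 7.09% to 32.6%) overlapped a gap, near the 15.4% of all WT LAD genes. Gaps took 8.69% of their WT LAD bases, against 6.88% for all genes. The start lay in a gap for 4 of the 5. *Cyp3a41a* lay whole in a 73.6 kb gap (chr5:146485591-146559209) with its 13 exons. Its neighbour *Cyp3a44* lay in a 36.3 kb gap over 66.9% of its span and 10 of 13 exons, and *Cyp3a16* in a 14.4 kb gap over 20.5%. *Cyp2j5*, a fatty acid epoxygenase gene, was cut by 2 gaps over 46.1%, 1 of them of 29.3 kb over its start. *Cyp39a1*, an oxysterol hydroxylase gene, was overlapped over 12.6%, yet had 21.3% of its span in WT LAD and 31.5% in KO LAD.

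The promoters of these 4 genes, from 250 bases before to 50 after the annotated start, are shown with CG in capitals because starts inside gaps were poor in this dinucleotide. All 4 are on the reverse strand of mm9 and read 5' to 3' along the gene: *Cyp3a41a* at chr5:146531663-146531962, *Cyp3a44* at chr5:146617401-146617700, *Cyp3a16* at chr5:146230543-146230842 and *Cyp2j5* at chr4:96330796-96331095.
Cyp3a41a: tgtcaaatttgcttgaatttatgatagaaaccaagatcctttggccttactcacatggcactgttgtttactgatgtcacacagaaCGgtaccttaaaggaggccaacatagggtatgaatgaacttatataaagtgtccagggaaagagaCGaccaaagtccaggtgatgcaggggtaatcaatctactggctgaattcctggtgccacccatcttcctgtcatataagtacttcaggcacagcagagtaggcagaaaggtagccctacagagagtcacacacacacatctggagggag
Cyp3a44: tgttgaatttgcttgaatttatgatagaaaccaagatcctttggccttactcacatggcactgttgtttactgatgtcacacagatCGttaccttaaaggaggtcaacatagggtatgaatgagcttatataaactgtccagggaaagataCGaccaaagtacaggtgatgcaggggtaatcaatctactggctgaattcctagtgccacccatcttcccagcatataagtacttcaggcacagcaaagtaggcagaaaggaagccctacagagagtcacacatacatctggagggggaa
Cyp3a16: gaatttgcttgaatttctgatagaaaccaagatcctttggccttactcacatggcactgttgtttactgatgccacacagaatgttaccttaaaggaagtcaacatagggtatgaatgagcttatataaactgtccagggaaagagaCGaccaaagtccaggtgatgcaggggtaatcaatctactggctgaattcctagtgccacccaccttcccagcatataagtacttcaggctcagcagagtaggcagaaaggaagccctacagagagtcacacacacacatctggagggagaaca
Cyp2j5: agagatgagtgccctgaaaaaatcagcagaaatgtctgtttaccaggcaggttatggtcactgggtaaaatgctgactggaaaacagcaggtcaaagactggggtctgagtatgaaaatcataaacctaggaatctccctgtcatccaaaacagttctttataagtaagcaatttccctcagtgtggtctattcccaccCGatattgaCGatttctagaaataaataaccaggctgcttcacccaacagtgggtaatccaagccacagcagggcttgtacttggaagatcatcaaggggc
The *Cyp3a16* promoter has 1 CG and the other 3 have 2 each. The 3 *Cyp3a* promoters were 93.7% to 94.7% identical to one another, and short reads from such copies can be placed on the wrong one, so the borders among these genes are uncertain. Over all 211 starts in gaps, the CpG ratio of the promoter, its observed CG over the number that base content gives, had a median of 0.179. The median was 0.169 for the 2858 starts in kept LAD and 0.660 for the 13500 starts outside LADs. A ratio of at least 0.6, as in CpG islands, was found for 4 gap promoters (1.90%, 0.740% to 4.77%), for 10.5% in kept LAD and for 55.6% outside LADs. The 4 were *Ccdc60*, *Ildr1*, a gene of tricellular junctions, *Myh2*, a skeletal muscle myosin gene, and *Zim1*, an imprinted zinc finger gene that lay whole in a gap; they were named after their values were seen.

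Of 112 other drug metabolism genes 39 had WT LAD, and 3 of these (7.69%, against 15.4% of all WT LAD genes) overlapped a gap. The steroid sulphotransferase gene *Sult2a6* had 89.5% of its span and 4 of 6 exons in a gap, *Sult2a5* had 36.2%, and the glucuronosyltransferase gene *Ugt2b37* had 57.2% with its start. Of the serpin genes, which encode protease inhibitors, 5 of 24 were overlapped (20.8%, 9.24% to 40.5%, an interval that holds the 15.4% of all WT LAD genes), and gaps took 11.7% of their WT LAD bases, against 6.88% for all genes. *Serpinb9d* lay whole in a gap, and gaps took 40.3% of *Serpinb2* and 33.5% of *Serpini1*, the neuroserpin gene. Among 17 developmental transcription factor genes with WT LAD, 4 were overlapped (23.5%, 9.56% to 47.3%), with no start in a gap, and these included *Meis2* over 8.40% and *Sox6* over 6.61% of the span. Both had more of the span in LAD in KO than in WT. The shares were 38.8% in WT and 81.1% in KO for *Meis2*, and 14.6% and 43.6% for *Sox6*. Among the longest genes to lie whole in a gap, *CN725425* (29.3 kb), *Gm14326* (21.3 kb), *Zim1* (21.01 kb), *Gm14420* (13.4 kb), *Ibsp*, the bone sialoprotein gene (12.3 kb), *Vmn2r8* (11.6 kb) and *Gm4776* (10.4 kb) stood beside *Cyp3a41a* and *Kcnj2*.

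Of 7 genes examined here among those outside chromosome 19 that the study listed as released from the lamina and upregulated, a list chosen on these samples and so no independent evidence, 2 overlapped a gap. *Bicc1*, which encodes an RNA-binding protein, was cut by 3 gaps over 21.3% of its span. *5033411D12Rik*, taken here to be the older symbol of the gene the study lists as *Sugct*, was cut by 1 gap over 1.22%. The other 5 (*Hao2*, *Cyp4a10*, *Ppargc1a*, *Cyp2b9* and *Defb1*) overlapped none, although their share in LAD was lower in KO: for *Cyp4a10*, a fatty acid hydroxylase gene, it was 92.6% in WT and 0% in KO. None of these 7 had its start in a gap, but the study's list is not covered in full here. The 7 therefore say nothing of the list as a whole. Of the cell cycle genes 0 of 1 with WT LAD overlapped a gap, and of the cytosolic ribosomal protein genes 0 of 3. Cholesterol synthesis genes had 0 of 21 in a WT LAD, so none could hold a gap.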

How the data were processed

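The deposited files are LAD lists and DR lists of genomic intervals for WT and KO on mm9, 4 lists in all, with no score or signal, so the deposited unit is other: a position. Per *DpnI* fragment, the authors divided Dam-LaminB1 by Dam-only signal on a log2 scale, then called LADs by circular binary segmentation. The submitters' processing notes name BWA and limma, with no role given. Depth per library is not given in these lists. Genotypes and constructs were assigned from the sample labels.

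The gaps and gene lists were chosen with earlier results of these data known. Subtracting the LAD lists from each other, keeping stretches of at least 10 kb, returned all deposited DRs (0 differed). Hosts, genes, exons and starts came from the NCBIM37 genome (the assembly of mm9) and its GENCODE annotation. Kept LAD is host LAD that KO LAD also covers. Lengths, counts and Wilson 95% intervals came from scripts in Python 3.11.15 (scipy 1.17.1, numpy 2.4.6), and matplotlib 3.10.9 drew the figures. Each interval step was first tested on simulated data with known answers. Named genes were those of the 5 longest gaps, the longest in the gaps of the 3 hosts with most gaps, the 10 cut by most gaps, the 10 longest to lie whole in a gap, and members of 18 lists by share of span in gaps (up to 10 for liver, drug, study-chosen, cell cycle and cholesterol lists, 3 for others). Some genes are not reported here. Alternatives were the minimum length, the chromosomes, the LAD lists, the overlap rule, the biotype and the reference territory. The genome copy marks no repeats, so repeat content was not analysed here.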

Additional observations from a re-analysis of the deposited data

How the results depend on the processing

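With 1 pooled library pair per genotype, nothing here could be repeated in a second sample, and no left-out replicate was possible. No paired analysis was possible because each group holds 1 library and no result comes from a test. Gap number and length depend on the minimum length. With gaps of at least 20 kb, there were 1265 gaps in 847 hosts with 40.7 Mb and a median of 28.1 kb; 6.40% held a start, the ratio of starts per Mb to kept host LAD was 0.999, the GC difference was 1.56 percentage points and 390 genes were overlapped. With gaps of at least 50 kb, there were 115 gaps in 105 hosts with 7.32 Mb and a median of 58.8 kb; 8.70% held a start, the ratio of starts reversed to 1.44, the GC difference was 2.28 points, the GATC ratio was 0.948 and 55 genes were overlapped. Fewer gaps and hosts follow from the alternative itself. The ratio reversed although starts in these gaps were sparser, at 2.32 per Mb against 2.57 in all gaps. Kept LAD of their hosts thus held fewer starts per Mb than that of all hosts, and why it did was not tested.

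By the overlap rule, 566 genes had at least 10% of the span in gaps, 177 at least 50%, and 211 their start. With genes of every biotype, 9.44% of gaps held a start and the ratio was 0.954. Without olfactory, vomeronasal and taste receptor genes the ratio was 0.911. Against flanking windows the ratio of starts was 0.963 and the GC difference 0.195 points, while the GATC ratio was 0.889.

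The GATC ratio stayed below 1 in every alternative run, from 0.874 to 0.948. Lifting the 10 kb minimum, or using all chromosomes, LADs of at least 20 kb, or WT LADs joined across breaks of up to 20 kb, moved no result by more than 1.5 times. Leaving out each chromosome in turn, chosen after the data were seen, gave 4051 to 4213 gaps, a ratio of starts of 0.768 to 0.852 and a GATC ratio of 0.874 to 0.879.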
